A study of Mus musculus with 32 samples.

Results

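The 10 genes followed here mark GABA (gamma-aminobutyric acid) interneurons from progenitor to mature cell, and were measured in whole mouse brain before and at birth. They were the transcription factor genes Dlx1, Dlx2, Dlx5, Dlx6, Nkx2-1 and Lhx6, the GABA synthesis genes Gad1 and Gad2, and the neuropeptide genes Sst and Npy. The genes were chosen by name, and all 10 were found among the 55291 gene symbols of each of the 4 count tables. The study compared C57BL/6J mice of genotype Dhcr7+/+ (WT) with Dhcr7-/- mice (KO), which lack the last enzyme of cholesterol synthesis, the step from 7-dehydrocholesterol to cholesterol. Brains came from the embryonic stages E12.5, E14.5 and E16.5 (days of gestation) and the day of birth (PND0), with 4 libraries in each of the 8 groups and 32 in all. Each library is a whole brain, so fewer cells of a type and less RNA per cell cannot be told apart. The labels name neither litter nor sex nor whether a library is 1 animal, so p-values measure the spread between these samples, which may be technical.

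Cortical interneurons are born below the cortex, in the ganglionic eminences, and migrate into it. Dlx1 and Dlx2 act in progenitors of all eminences and switch on Dlx5 and Dlx6, while Nkx2-1 specifies the medial eminence and activates Lhx6, which stays on in migrating and mature cells. The glutamate decarboxylases encoded by Gad1 and Gad2 make GABA, and the peptides somatostatin (Sst) and neuropeptide Y (Npy) mark subtypes of the medial lineage. Several of these genes are not limited to interneurons: the Dlx genes also serve striatal projection neurons, Nkx2-1 the hypothalamus, Gad1 and Gad2 all GABA neurons, and the peptides other brain regions.

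The Dlx genes lie in pairs that are transcribed toward each other. Dlx1 (chromosome 2, 71528113 to 71533981, plus strand, GRCm38) and Dlx2 (71543408 to 71546754, minus strand) are 9427 bases apart, and Dlx6 (chromosome 6, 6863334 to 6868568, plus strand) and Dlx5 (6877805 to 6882085, minus strand) are 9237 bases apart. Lhx6 (36081953 to 36105408, minus strand), Gad1 (70553072 to 70602014, plus strand) and Gad2 (22622205 to 22693874, plus strand) are also on chromosome 2. Nkx2-1 lies on chromosome 12 (56531958 to 56536908, minus strand), Sst on chromosome 16 (23889573 to 23890958, minus strand) and Npy on chromosome 6 (49822710 to 49829507, plus strand).

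RefSeq promoter windows (GRCm38.p6, 250 bases before to 50 after a start site, gene strand, 5′ to 3′) were matched for 8 of the 10 genes, with 10 windows in all. Shown are those of the genes whose differences carry the results below, Lhx6 (1 of its 3 windows), Gad1 and Gad2, and that of Sst. Capitals mark a match, on either strand, to TAATTA or TAATTG (cores bound by homeodomain proteins such as those of Dlx and Lhx genes), TGACGTCA (the cyclic AMP response element), TATAAA or CCAAT.
Lhx6, chr2:36104011-36104310, minus strand: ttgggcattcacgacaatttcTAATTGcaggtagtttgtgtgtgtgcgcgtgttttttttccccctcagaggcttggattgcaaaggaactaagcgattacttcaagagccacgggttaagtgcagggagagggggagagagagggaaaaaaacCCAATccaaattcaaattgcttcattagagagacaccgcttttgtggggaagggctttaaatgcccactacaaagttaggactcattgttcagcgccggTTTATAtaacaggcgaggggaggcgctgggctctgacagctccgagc
Gad1, chr2:70561879-70562178, plus strand: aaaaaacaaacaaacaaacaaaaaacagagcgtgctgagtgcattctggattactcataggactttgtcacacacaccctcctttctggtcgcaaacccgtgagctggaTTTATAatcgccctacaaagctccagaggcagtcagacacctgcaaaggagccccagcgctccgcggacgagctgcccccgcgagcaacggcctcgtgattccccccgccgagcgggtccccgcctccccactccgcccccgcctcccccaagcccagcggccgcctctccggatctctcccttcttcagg
Gad2, chr2:22622077-22622376, plus strand: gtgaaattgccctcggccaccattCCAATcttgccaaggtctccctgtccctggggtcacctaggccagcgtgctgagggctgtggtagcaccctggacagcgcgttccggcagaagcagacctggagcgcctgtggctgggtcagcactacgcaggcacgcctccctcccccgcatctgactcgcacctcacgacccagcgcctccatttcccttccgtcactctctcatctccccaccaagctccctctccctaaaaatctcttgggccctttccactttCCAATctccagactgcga
Sst, chr16:23890795-23891094, minus strand: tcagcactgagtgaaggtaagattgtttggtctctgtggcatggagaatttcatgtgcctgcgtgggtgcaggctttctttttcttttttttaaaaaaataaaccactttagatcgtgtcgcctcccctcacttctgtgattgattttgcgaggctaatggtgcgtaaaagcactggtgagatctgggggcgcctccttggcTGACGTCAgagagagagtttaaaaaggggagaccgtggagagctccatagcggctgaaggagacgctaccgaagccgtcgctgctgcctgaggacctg
The Lhx6 window held TAATTG and also TATAAA and CCAAT, that of Gad1 held TATAAA, that of Gad2 held CCAAT at 2 places and that of Sst held TGACGTCA. The cyclic AMP element stood in 1.79% of all 32851 promoter windows of this length, TAATTG in 8.0%, TATAAA in 13.6% and CCAAT in 37.4%. TAATTA, found in 5.29% of all windows, was in none of the 10 member windows. TAATTG and TGACGTCA were each in 1 of the 10, TATAAA in 2 and CCAAT in 5. Among the Lhx6 windows, that shown held the most matches. That at chr2:36105359-36105658 held only CCAAT, and that at chr2:36104484-36104783 held no match. A match describes the letters of the window and is not a binding site.

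Depth ran from 13.87 to 28.32 M counts per library, so 3 counts, the limit that a count of 0 allows, came to 0.106 to 0.216 CPM (counts per M, for mega, of library counts, scaled between all libraries). This limit covers counting error only. The 10 genes had between 41 and 6346 counts in every library, and all passed the filter on low counts in every comparison. Dhcr7 itself stood at 58.6 to 102.4 CPM in the WT libraries and at 11.4 to 26.7 CPM in the KO libraries, with no overlap. At PND0, WT replicate 4 read 60.0 CPM, against 96.9, 97.6 and 102.4 in the other WT libraries of that stage. Marker sums for general brain genes were at least 3723 CPM in every library, while 8 genes of pituitary, thyroid and lung summed to at most 3.57 CPM. Some libraries stood apart from their group by markers of brain regions (WT replicates 1 and 2 at E16.5, WT replicate 3 and KO replicates 3 and 4 at PND0). Others did so by ribosomal RNA or tissue of the head (KO replicate 1 and WT replicate 1 at E12.5), and E16.5 WT replicate 1 also by ribosomal RNA. For the KO comparisons and the WT steps on which these libraries weighed, values without them are given beside the results.

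In WT brain the 10 genes followed 3 courses. The mean levels of Dlx1, Dlx2, Dlx5, Dlx6 and Nkx2-1 were highest at E14.5 and lowest at PND0. Those of Lhx6, Gad1, Sst and Npy were lowest at E12.5 and highest at PND0. Gad2 was lowest at E12.5 and highest at E14.5. The plot of WT courses puts the 5 early genes at 0.21 to 0.99 log2 units above their own mean at E14.5 and 0.30 to 1.23 below it at PND0.

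**Figure D1:**
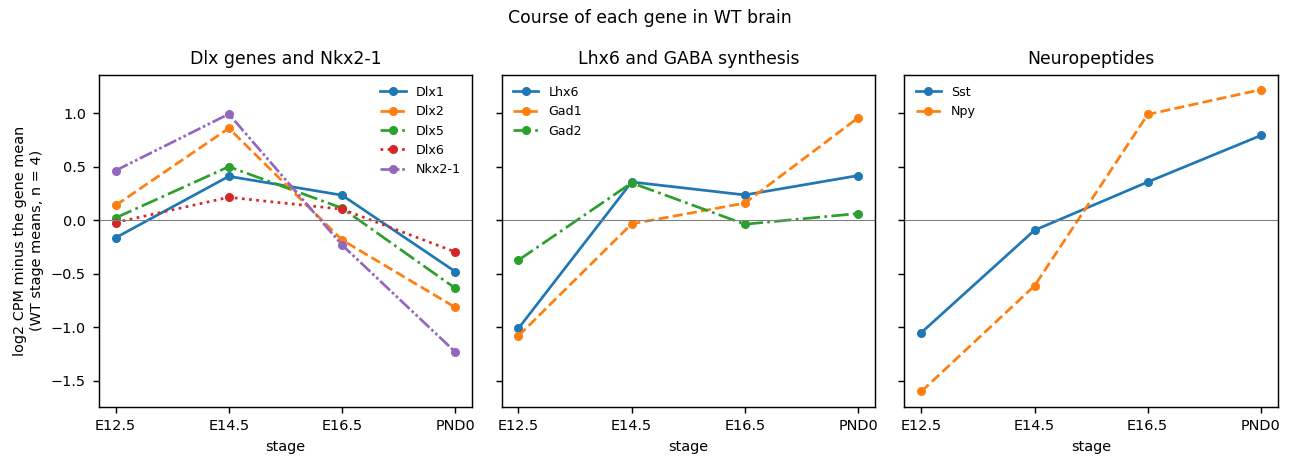
WT course of each gene, with stage on the x axis. The y axis shows the mean of the log2 CPM at each stage (n = 4 libraries) minus the mean of the 4 stage values. The 4 Dlx genes and Nkx2-1 (left) peak at E14.5, Lhx6 (middle) steps up to E14.5 and then stays within 0.24 and 0.42, and Gad1 (middle), Sst and Npy (right) reach 0.96, 0.79 and 1.22 at PND0.

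Between E12.5 and E14.5, 7 of the 10 genes rose and none fell (edgeR quasi-likelihood test, Benjamini-Hochberg adjusted p under 0.05). Of the 17942 genes tested in this step, 27.3% rose, 30.5% fell and 57.8% changed in either direction. The median log2 difference of the 10 genes was 0.64, against -0.03 for all genes. General brain markers summed to 3723 to 6176 CPM in the E12.5 WT libraries and to 6186 to 6442 in those of E14.5. Genes of other head tissues summed to 274 to 677 and 160 to 180 CPM, and blood markers to 1933 to 8948 and 1121 to 1476. The part of these lists in the rises was not tested. From E14.5 to E16.5, 4 fell and 1 rose, where 28.2% of 17674 genes fell and 29.3% rose (57.5% in all). From E16.5 to PND0 Gad1 was the only one of the 10 to pass, upward, where 26.0% of 17438 genes rose, 27.2% fell and 53.2% changed in either direction. Neighbouring groups did not overlap for 8, 4 and 3 of the 10 genes in the 3 steps, and for 56.2%, 55.9% and 49.6% of all genes averaging 1 CPM or more. Single libraries weighed on the later counts: without E16.5 WT replicate 1 the middle step had 8 calls, with Dlx1, Dlx6 and Lhx6 also lower. Without that library and PND0 WT replicate 3 the last step had 5, namely Dlx1 (-0.37), Nkx2-1 (-0.67), Lhx6 (0.48), Gad1 (0.77) and Npy (0.71). Each stage was deposited as a table of its own, so stage and anything else that differed between the tables cannot be told apart.

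Among the early transcription factors, Nkx2-1 had the widest course. Its E12.5 WT libraries read 39.4, 36.2, 70.3 and 81.1 CPM, those of E14.5 82.3, 73.2, 79.7 and 73.2, those of E16.5 30.4, 40.2, 25.5 and 37.7, and the PND0 libraries 16.7, 23.5, 7.38 and 25.3. Every E14.5 library was above every later one, and the fall to E16.5 was -1.18 on the log2 scale (SE 0.121, adjusted p = 1.1e-05). The further difference to PND0, -0.90 (SE 0.359), had an adjusted p of 0.0679, although the groups did not overlap. At E12.5 the 4 libraries formed a lower and a higher pair, and the step to E14.5 was 0.42 (SE 0.241, adjusted p = 0.173). With 1 library left out that step was 0.26 to 0.63, and it passed without E12.5 WT replicate 4 (adjusted p = 0.0356). The fall to E16.5 passed without either E16.5 WT replicate 1 (-1.15) or 2 (-1.28).

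Dlx2 peaked in the same way. Its E12.5 WT libraries read 49.9, 49.9, 74.4 and 82.4 CPM, those of E14.5 107, 101, 108 and 96.5, those of E16.5 55.4, 36.6, 56.8 and 54.1, and the PND0 libraries 30.3, 42.8, 18.4 and 45.2. The rise to E14.5 was 0.66 (SE 0.157, adjusted p = 0.00658), and the fall to E16.5 was -1.003 (SE 0.131, adjusted p = 0.00016), with the E14.5 libraries apart from both neighbours. The last step, -0.60 (SE 0.288), did not pass (adjusted p = 0.12).

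Dlx1, the partner of Dlx2 on chromosome 2, had the same order of means. Its means in order of stage were 162 ± 50.3, 232 ± 6.34, 208 ± 34.9 and 131 ± 40.6 CPM (SD, n = 4). None of its 3 steps passed, with adjusted p of 0.0507, 0.288 and 0.0585. The first step did pass without E12.5 WT replicate 3 (adjusted p = 0.015), and the second without E16.5 WT replicate 1 (-0.26, adjusted p = 0.00234). Reads in the 335 exon bases that Dlx1 shares with the antisense gene Dlx1as, 6.21% of its exon length, cannot be assigned, since the strand setting of the counting was not given in the sources used here. Dlx1as had 61 to 347 counts per library.

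Dlx5 and Dlx6, the second pair, were lower and flatter. Dlx5 means were 27.3 ± 3.48, 37.9 ± 2.50, 29.3 ± 5.42 and 19.1 ± 8.03 CPM (SD, n = 4) in order of stage. It rose to E14.5 by 0.44 (SE 0.0912, adjusted p = 0.00209) and fell to E16.5 by 0.35 (SE 0.113, adjusted p = 0.0173), a fall that did not pass without E16.5 WT replicate 4 (adjusted p = 0.0517). Neither step passed in a single fit of all 32 libraries. Dlx6 means were 14.9 ± 1.05, 17.7 ± 2.20, 16.55 ± 3.68 and 13.4 ± 5.39 CPM, and no step passed (adjusted p of 0.0964, 0.664 and 0.405). Dlx6os1, the antisense gene at Dlx6, shares no exon bases with it and averaged 53.9, 59.7, 63.4 and 25.4 CPM. Another antisense gene, Dlx6os2, shares 104 exon bases with Dlx6 and had 1 to 31 counts per library.

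Lhx6, which follows Nkx2-1 in the medial lineage, rose 2.38 times to E14.5, and its later steps did not pass. Its E12.5 WT libraries read 33.0, 13.1, 32.2 and 30.5 CPM, those of E14.5 66.7, 68.7, 64.3 and 64.5, those of E16.5 80.2, 56.3, 59.5 and 50.5, and the PND0 libraries 81.8, 83.0, 47.7 and 69.3. Each E12.5 library was below every later one, and the rise was 1.25 (SE 0.242, adjusted p = 0.00246). The later steps were -0.08 and 0.16, with adjusted p of 0.611 and 0.512. The annotated small RNA Gm27953 shares 104 exon bases with Lhx6 and had at most 8 counts in a library. Without E16.5 WT replicate 1, whose Lhx6 was the highest of its group, the step from E14.5 to E16.5 was a fall of -0.25 (adjusted p = 0.00334).

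The 2 decarboxylase genes parted after E14.5. The E12.5 libraries read 32.8, 47.7, 86.3 and 68.1 CPM for Gad1, those of E14.5 113, 128, 102 and 115, those of E16.5 133, 157, 116 and 119, and the PND0 libraries 243, 222, 232 and 211. Its rises of 0.94 to E14.5 (SE 0.253, adjusted p = 0.0124) and 0.76 from E16.5 to PND0 (SE 0.0904, adjusted p = 9e-06) both separated the groups, while the middle step was 0.22 (adjusted p = 0.0726). For Gad2 the E12.5 libraries read 54.5, 82.7, 122 and 113 CPM, those of E14.5 150.04, 148, 149 and 139.7, those of E16.5 104, 121, 113 and 110.5, and the PND0 libraries 126, 115, 123 and 118. It rose by 0.63 (SE 0.211, adjusted p = 0.0316), fell by 0.36 (SE 0.0498, adjusted p = 1.2e-05) and had no further difference that passed (0.07, SE 0.0674, adjusted p = 0.397). The first rise of Gad2 did not pass when E12.5 WT replicate 2, E14.5 WT replicate 1 or E14.5 WT replicate 3 was left out (adjusted p of 0.0731, 0.0556 and 0.0502).

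The mean levels of the peptide genes were higher at each later stage. For Npy the E12.5 libraries read 3.25, 3.53, 5.58 and 4.18 CPM, those of E14.5 8.39, 6.87, 9.18 and 8.22, those of E16.5 46.6, 23.8, 22.8 and 15.1, and the PND0 libraries 32.9, 36.1, 18.9 and 32.8. Its rises of 0.95 (SE 0.177, adjusted p = 0.00115) and 1.75 (SE 0.364, adjusted p = 0.00561) each separated the groups, and the PND0 mean was 7.29 times that of E12.5. Without E16.5 WT replicate 1, the highest library of its group, the rise to E16.5 was 1.35 (adjusted p = 2.3e-06). Sst means were 21.4 ± 6.25, 40.5 ± 2.49, 59.9 ± 26.4 and 75.4 ± 10.1 CPM (SD, n = 4), and of its steps the first passed (0.89, SE 0.177, adjusted p = 0.00248). At E16.5 the Sst libraries ran from 32.4 to 88.1 CPM, and the step from E14.5, 0.58 (SE 0.327), had an adjusted p of 0.174. It passed without E16.5 WT replicate 4 (0.79, adjusted p = 0.0362).

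**Figure D2:**
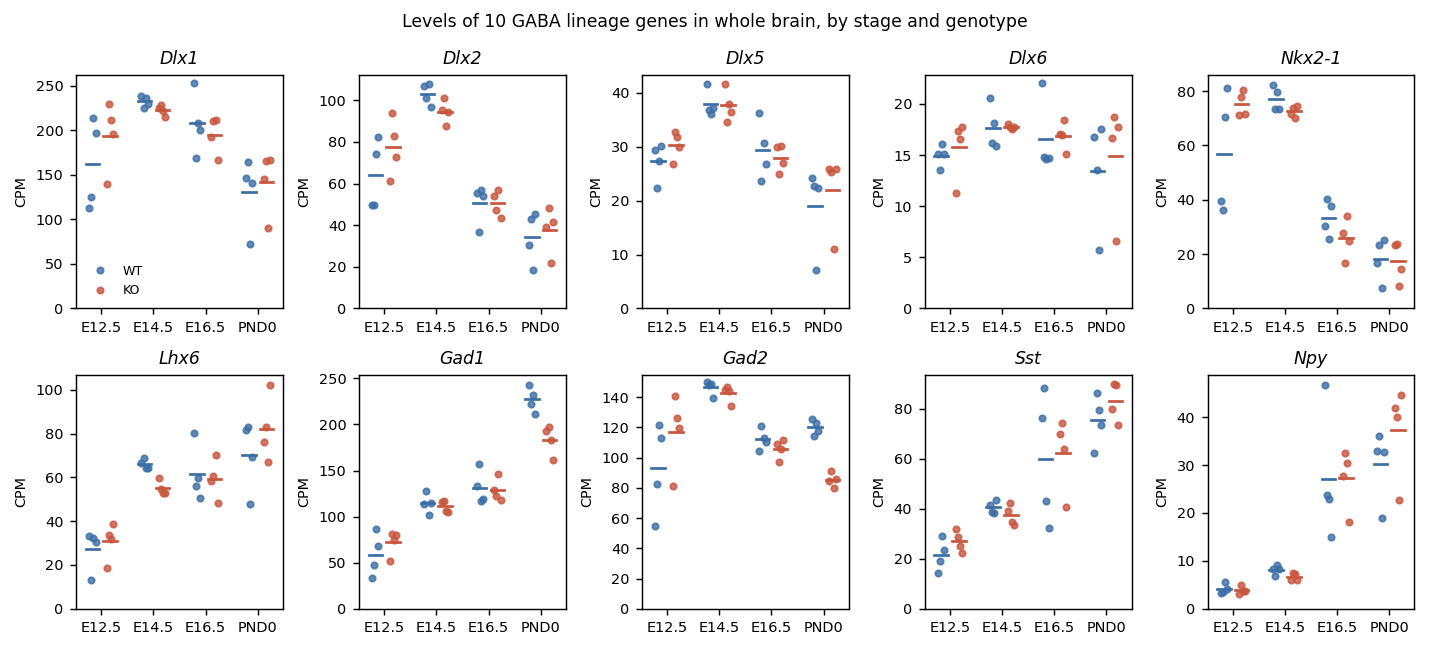
Levels of the 10 genes: x axis, stage; y axis, CPM from 0; each point is a library (WT blue, KO red) and each line the mean of 4. The WT and KO points overlap in most panels, the 2 exceptions with an adjusted p under 0.05 being Lhx6 at E14.5 and Gad2 at PND0, and a low library in each PND0 group stands below the rest for the Dlx genes.

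Per kilobase of the longest annotated transcript, the order of levels turned over. At E12.5 in WT, Dlx1 (39.4 CPM per kb) was highest and Dlx6 (6.75), Npy (7.31) and Lhx6 (7.82) were lowest. At E14.5 Dlx1 (56.5) and Sst (56.2) led with nearly equal means, followed by Dlx2 (41.7) and Gad1 (31.8). At PND0 Sst (104.6), Gad1 (63.1) and Npy (53.3) stood above Dlx1 (31.9), Gad2 (20.9) and Lhx6 (20.2), and Dlx5 (13.4), Nkx2-1 (6.49) and Dlx6 (6.05) were at the lower end.

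Ratios of raw counts within a library, which no scaling between libraries can move, set partner genes against each other. The Gad1 to Gad2 ratio had geometric means of 0.62, 0.778, 1.16 and 1.89 in order of stage in WT. At PND0 the 4 WT libraries read 1.94, 1.94, 1.89 and 1.79, above all 4 of E16.5, at 1.28, 1.30, 1.03 and 1.08. The Lhx6 to Nkx2-1 ratio had means of 0.478, 0.858, 1.84 and 4.18, and that of Dlx1 to Dlx2 had means of 2.49, 2.25, 4.12 and 3.88. Of the 9 WT steps, 5 had non-overlapping groups, each with p = 0.0286, the smallest that an exact permutation test of 4 against 4 can give. Adjusted over the 9 steps this is 0.0514, which does not pass.

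**Figure D3:**
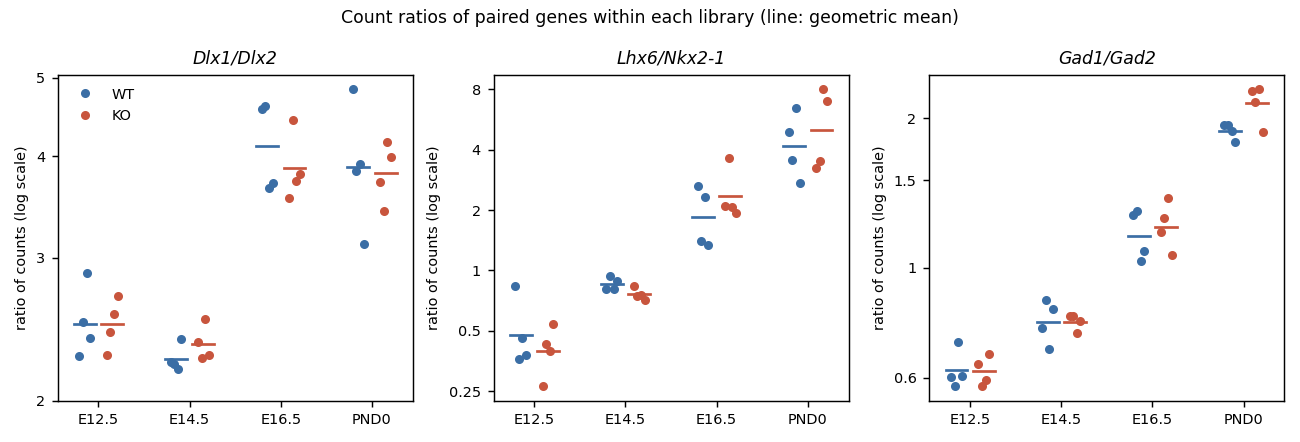
Count ratios within each library: x axis, stage; y axis, ratio on a log scale; points are libraries (WT blue, KO red), lines the geometric mean of 4. The Gad1 to Gad2 ratio climbs from 0.62 to 1.89 in WT and from 0.619 to 2.15 in KO, and the Dlx1 to Dlx2 ratio steps up between E14.5 and E16.5 in both genotypes.

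Other genes of the lineage were taken from 5 lists with 44 entries. Among subpallial progenitor genes, Gsx2 and Nkx6-2 fell from E12.5 to E14.5, the step in which Dlx2 and Dlx5 rose, by 0.58 (SE 0.199, adjusted p = 0.0281) and 0.72 (SE 0.166, adjusted p = 0.00409). Gsx1 and Olig2 had values of -0.19 and -0.20 in that step, which did not pass (adjusted p of 0.478 and 0.33). To E16.5 Gsx1, Gsx2 and Nkx6-2 fell by 1.72, 1.23 and 1.57 (adjusted p of 7.7e-06, 0.00014 and 0.0042), and Olig2 did not (-0.01, adjusted p = 0.957). Gsx2, an early patterning gene of the eminences, went from 8.87 ± 2.43 to 0.935 ± 0.145 CPM (SD, n = 4) between E12.5 and PND0, and Olig2, which also serves oligodendrocyte precursors, from 27.9 ± 7.75 to 39.0 ± 2.52. Of 14 interneuron transcription factors and related RNAs, 5 rose to E14.5, and then 4 rose and 7 fell to E16.5. Of all genes tested, 27.3% rose to E14.5, and 29.3% rose and 28.2% fell to E16.5. Npas1 showed the largest rise from E12.5 to PND0, 6.61 times, and Lhx8, a gene of cholinergic and other ventral neurons, the largest drop, to 0.399 of its E12.5 mean. The E12.5 and PND0 groups of Lhx8 overlapped, while those of Sox6, at 0.402 of its E12.5 mean, did not.

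Of the GABA transport and breakdown genes, all 6 rose to E14.5, as Gad1 did, and 5 of 6 rose from E16.5 to PND0. Slc6a11, the GABA transporter of astrocytes, went from 6.22 ± 3.23 to 224 ± 24.8 CPM (SD, n = 4), a ratio of 36.0. Of 5 migration receptors none rose and 1 fell to E14.5, with Ackr3, a chemokine receptor, dropping from 45.6 to 16.7 CPM over the 4 stages and Nrp1, a semaphorin receptor, going from 45.7 to 81.8. Of 14 subtype markers 13 were tested, of which 4, 7 and 7 rose in the 3 steps. Nos1, the neuronal nitric oxide synthase, went from 5.67 to 93.7 CPM. Lamp5 had the lowest ratio of the list, 5.37 ± 5.31 against 2.83 CPM (SD, n = 4), with overlapping groups. Pvalb and Vip, markers of later-maturing subtypes, averaged under 1 CPM over the WT libraries.

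For each gene the 3 genes with the most similar WT course were sought among 12285 genes averaging 1 CPM or more with a course that spanned 0.5 log2 units or more, by the root mean square difference of the 4 centred stage values. Dlx1 had Gm30731 (0.0457), Sp9 (0.0542), itself an interneuron transcription factor, and Gm14508 (0.058). Dlx2 had Scrt2 (0.0586), Gm8319 and Gm7694, Dlx5 had Platr14 (0.046), 2810454H06Rik and Cdk6, and Dlx6 had Hk3 (0.0262), Meis3 and Pou3f3. Nkx2-1 was matched by its neighbour Sfta3-ps (0.0988), then Gm37790 and A930005G22Rik, and Lhx6 by Atcayos (0.0626), Gm38101 and Phyhd1. Gad1 had Iqsec2 (0.0351), Tmeff2 and Slc7a8, and Gad2 had Klhdc7a (0.0182), Pbx4 and Kcnab3. Sst had Gm3252 (0.0121), Magee2 and Ttc9b, and Npy had Klhl33 (0.0575), Cntnap3 and Gm3693. Among the 10 genes, the most alike were Gad1 and Sst (0.132) and Dlx1 and Dlx5 (0.142), yet Sst stood only at rank 160 among the genes nearest to Gad1, and Gad1 at rank 157 among those nearest to Sst. With 4 points a course, such likeness is a description.

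The KO was compared with WT at each stage in 4 libraries against 4. One gene of the 10 passed at E14.5, Lhx6, and 1 at PND0, Gad2, both lower in KO. None passed at E12.5 or E16.5. The plot of KO against WT differences shows how unequal the precision was: standard errors ran from 0.0328 to 0.129 at E14.5 and from 0.0748 to 0.462 at PND0.

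**Figure D4:**
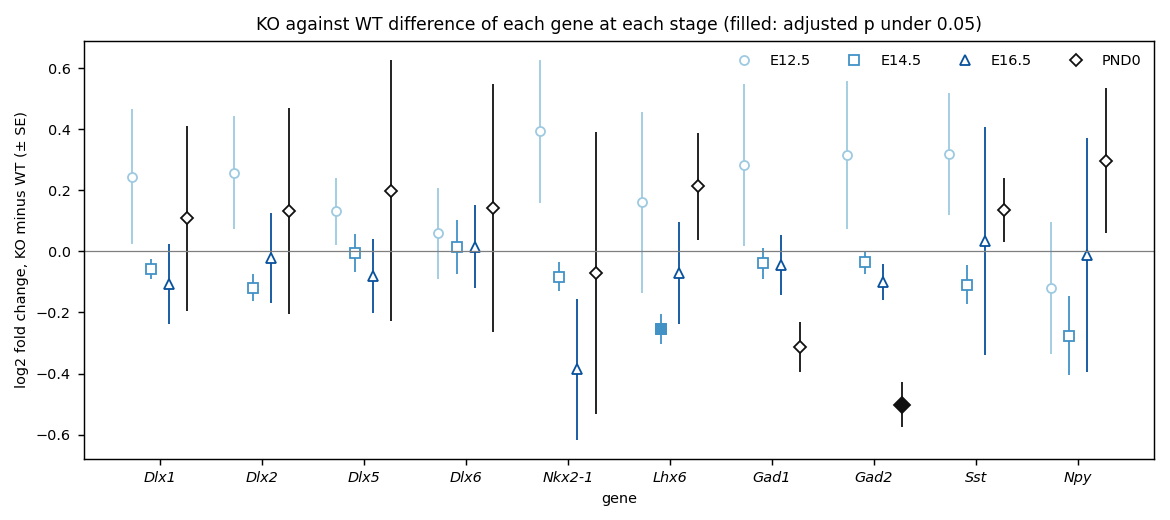
KO minus WT log2 fold change of each gene at each stage, with its standard error (4 libraries against 4); filled symbols have an adjusted p under 0.05. Filled are Lhx6 at E14.5 (-0.26) and Gad2 at PND0 (-0.50); at E12.5 9 of 10 symbols lie above 0 with wide errors, and at E14.5 9 of 10 lie below 0.

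At E12.5 no gene passed (edgeR adjusted p of 0.875 to 0.958), none had an unadjusted p under 0.05, and DESeq2 called none. Of the 16948 genes tested, 0.0177% passed in either direction, 0.0118% as lower, and 4.70% had an unadjusted p under 0.05. Of the 10, 9 differences were above 0, against 50.7% of all genes, with a median of 0.25 and a largest value of 0.39 for Nkx2-1 (SE 0.234). Nkx2-1 in KO read 71.1, 78.0, 80.3 and 71.7 CPM, all 4 between the 2 higher WT libraries and above the 2 lower ones. The marker sum of general brain genes moved alongside: it was 3723, 4826, 6176 and 5762 CPM in WT and 5160, 6558, 6208 and 5901 in KO, with all 10 of that list above 0 and none called. Blood markers went the other way, at 1933 to 8948 CPM in WT and 1568 to 4767 in KO, with 8 of 8 below 0 and none called, as did genes of other head tissues, at 274 to 677 CPM in WT and 237 to 346 in KO, with 6 of 6 below 0 and none called. The part of these lists in the 9 positive differences was not tested. KO replicate 1, the lowest KO library for 9 of the 10 genes, had 5.64% of its counts in ribosomal RNA genes against at most 0.376% in the other 7. Without it and WT replicate 1, 9 of 10 differences were again positive, from 0.07 for Sst to 0.43 for Lhx6, and none passed. The marker lists also kept their sides without this pair, with all 10 general brain genes above 0 (median 0.155). Of the blood markers 8 of 8 (median -1.57), and of the genes of other head tissues 6 of 6 (median -0.846), were below 0.

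At E14.5 Lhx6 was lower in KO by 16.2%. WT libraries read 66.7, 68.7, 64.3 and 64.5 CPM and KO libraries 59.9, 54.6, 53.1 and 52.9. The highest KO library was below the lowest WT library, as in 2.91% of the 15712 genes averaging 1 CPM or more. The means were 66.1 ± 2.07 and 55.1 ± 3.28 CPM (SD, n = 4), a log2 difference of -0.26 (SE 0.049, adjusted p = 0.00263). Over all 17837 genes, 0.308% passed as lower and 0.527% in either direction. With any 1 library left out the difference was -0.30 to -0.24 with an adjusted p of 0.000998 to 0.0225. In a single fit of all 32 libraries it was -0.26 again but with an adjusted p of 1.0.

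The rest of the 10 genes did not pass at E14.5. The Npy difference was slightly larger than that of Lhx6, with a larger standard error. Of all 10, 1 was above 0, against 50.6% of all genes. The median of all 10 was -0.07, and 3 had an unadjusted p under 0.05, against 8.73% of all genes: Lhx6, Dlx2 and Npy. Dlx2 stood at 103 ± 5.31 CPM in WT and 94.5 ± 5.43 in KO, a difference of -0.12 (SE 0.0449, adjusted p = 0.367). Npy read 8.39, 6.87, 9.18 and 8.22 CPM in WT and 5.96, 7.52, 7.30 and 6.03 in KO, with overlap between 6.87 and 7.52, and its difference was -0.28 (SE 0.129, adjusted p = 0.549). Nkx2-1, the activator of Lhx6, stood at 77.1 ± 4.62 and 72.5 ± 1.96 CPM (-0.08, SE 0.0474, adjusted p = 0.638). Gad1 (-0.04, SE 0.0517) and Gad2 (-0.04, SE 0.0373) had adjusted p of 0.894 and 0.853.

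Among the other lineage genes at E14.5 none of the 43 tested in the 5 lists passed. Sox6, which acts after Lhx6 in the medial lineage, had the smallest p of the interneuron factors, with a difference of -0.16 (SE 0.0509, adjusted p = 0.218). Gata2, a gene of GABA neurons outside the telencephalon (the forebrain part that forms cortex and striatum), fell by 0.38 (SE 0.0874, adjusted p = 0.0257). It read 17.2, 17.4, 19.7 and 19.7 CPM in WT and 13.49, 15.3, 14.48 and 13.6 in KO, with no overlap. The call was lost without KO replicate 1 or 4 or WT replicate 3 or 4 (adjusted p of 0.123, 0.0805, 0.126 and 0.151). It was the only one of 11 tested genes of that list to pass, and the list's sum was 542 to 579 CPM in WT and 529 to 564 in KO. KO replicates 3 and 4 had 2.68% and 2.55% of their counts in ribosomal RNA genes, against 0.869% to 1.17% in the other 6 libraries. With that share as a covariate, Lhx6 was at -0.23 (adjusted p = 0.0282).

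At E16.5 no gene passed (edgeR adjusted p of 0.533 to 0.995), and none had an unadjusted p under 0.05. DESeq2 gave an adjusted p to only 3 of the 10, Dlx1, Gad1 and Gad2, of which the lowest was 0.365. Of 17328 genes, 0.0462% passed in either direction, 0.0173% as lower, and 11.5% had an unadjusted p under 0.05. The differences ran from -0.39 for Nkx2-1 (SE 0.23, adjusted p = 0.561) to 0.03 for Sst (SE 0.373), and 2 of 10 were above 0, against 8670 of the 17328 genes. The hypothalamus markers, a region that also expresses Nkx2-1, had 10 of 10 tested below 0 (median -0.55, none called), with sums of 18.1 to 88.7 CPM in WT and 25.3 to 47.8 in KO. Without WT replicates 1 and 2, 6 of the 10 markers were below 0 and 4 above (median -0.549, none called). Their part in the Nkx2-1 difference was not tested. The WT and KO levels of Lhx6 were 61.6 ± 12.9 and 59.3 ± 9.04 CPM (SD, n = 4). Gad2 was at 112 ± 7.04 and 106 ± 6.44 CPM, a difference of -0.10 (SE 0.0587, adjusted p = 0.533). Cxcr4, the receptor that guides migrating interneurons, had the smallest p of its list (-0.25, SE 0.0653, adjusted p = 0.256).

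A pair of WT libraries stood at the ends of the E16.5 group for many of the genes. Replicate 1 was the highest WT library for Dlx1, Dlx5, Dlx6, Lhx6 and Npy, and its sum of markers of GABA neurons outside the telencephalon was 40.4 CPM, against 261 to 319 in the other WT libraries and 146 to 299 in KO. It also had 3.75% of its counts in ribosomal RNA genes, against 0.356% to 0.626% in the other 7 libraries of the stage. Replicate 2 was the lowest for Dlx1, Dlx2 and Dlx5, the highest for Nkx2-1, Gad1, Gad2 and Sst, and had the highest hypothalamus sum, 88.7 CPM against 18.1 to 63.8 in the other 7 libraries. For Sst both were high, at 76.1 and 88.1 CPM against 43.2 and 32.4. Without both, no gene passed, and the value for Sst went from 0.03 to 0.70 (adjusted p = 0.354). Those for Lhx6, Gad1 and Npy turned from -0.07 to 0.09, from -0.05 to 0.11 and from -0.01 to 0.50 (adjusted p of 0.81, 0.484 and 0.48).

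At PND0 Gad2 was lower in KO by 29.4%. WT libraries read 126, 115, 123 and 118 CPM and KO libraries 84.8, 91.3, 79.6 and 85.6. The gap between the groups, from 91.3 to 114.6 CPM, was wider than the range of either. The means were 120.2 ± 4.91 and 85.3 ± 4.79 CPM (SD, n = 4), a log2 difference of -0.50 (SE 0.0748, adjusted p = 0.00631). Over all 17420 genes, 1.03% passed as lower and 1.44% in either direction. With any 1 library left out the difference was -0.54 to -0.47 with an adjusted p of 0.0109 to 0.0377. With the share of ribosomal RNA genes as a covariate, which was 1.80% to 2.78% in WT and 1.16% to 2.09% in KO, it was -0.40 with an adjusted p of 0.581.

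Gad1 differed in the same direction without passing. It read 243, 222, 232 and 211 CPM in WT and 193, 197, 183 and 161 in KO, so that the groups did not overlap, as was so, in the direction of lower in KO, for 6.03% of the 15967 genes averaging 1 CPM or more. The difference was -0.31 (SE 0.0817), or 19.6% lower, with an adjusted p of 0.0661 in edgeR. DESeq2 gave an adjusted p of 0.0188, and edgeR without a filter on low counts 0.0178. Without WT replicate 3 and KO replicate 4 the difference was -0.24 (adjusted p = 0.19). The Gad1 to Gad2 ratio was 1.89 in WT and 2.15 in KO, with single KO libraries at 2.27, 2.16, 2.29 and 1.88. The exact permutation p was 0.114, and 0.686 adjusted over 12 KO ratio tests, of which none had a p under 0.05.

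The other 8 genes did not differ beyond their spread at PND0, and 7 of those 8 had values above 0, against 49.9% of all genes. Their adjusted p ran from 0.531 for Sst to 0.963 for Nkx2-1. The WT and KO levels of Sst were 75.4 ± 10.1 and 83.1 ± 7.89 CPM (SD, n = 4), a difference of 0.14 (SE 0.104). Npy read 32.9, 36.1, 18.9 and 32.8 CPM in WT and 41.9, 40.0, 22.7 and 44.6 in KO, a difference of 0.30 (SE 0.237, adjusted p = 0.56). Lhx6, the gene called at E14.5, read 81.8, 83.0, 47.7 and 69.3 in WT and 76.3, 82.9, 67.0 and 102.4 in KO, a difference of 0.21 (SE 0.176, adjusted p = 0.572).

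Much of the spread at PND0 came from 1 library in each group. WT replicate 3 was the lowest WT library for 7 of the 10 genes, and KO replicate 3 the lowest KO library for 8. For Dlx5 they read 7.10 and 11.03 CPM, against 22.4 to 24.2 in the other WT libraries and 25.4 to 25.9 in the other KO libraries, and for Dlx6 5.75 and 6.62, against 13.6 to 17.6 and 16.6 to 18.7. The 17 striatal projection markers were low in the same libraries, at 942 and 821 CPM against 1231 to 1552 in the other 6, and markers of GABA neurons outside the telencephalon were high, at 297 and 241 CPM. Gad1 and Sst lay within the range of the other libraries of their group in both, and Gad2 in WT replicate 3. Without both libraries the differences of Dlx1, Dlx2, Dlx5 and Dlx6 were 0.07, 0.11, 0.14 and 0.13, none passed, and Gad2 was at -0.47 (adjusted p = 0.0165). Without WT replicate 3 and KO replicate 4 instead, the differences of these 4 Dlx genes were -0.17, -0.12, -0.16 and -0.20, and that of Lhx6 was -0.05, none called.

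**Figure D5:**
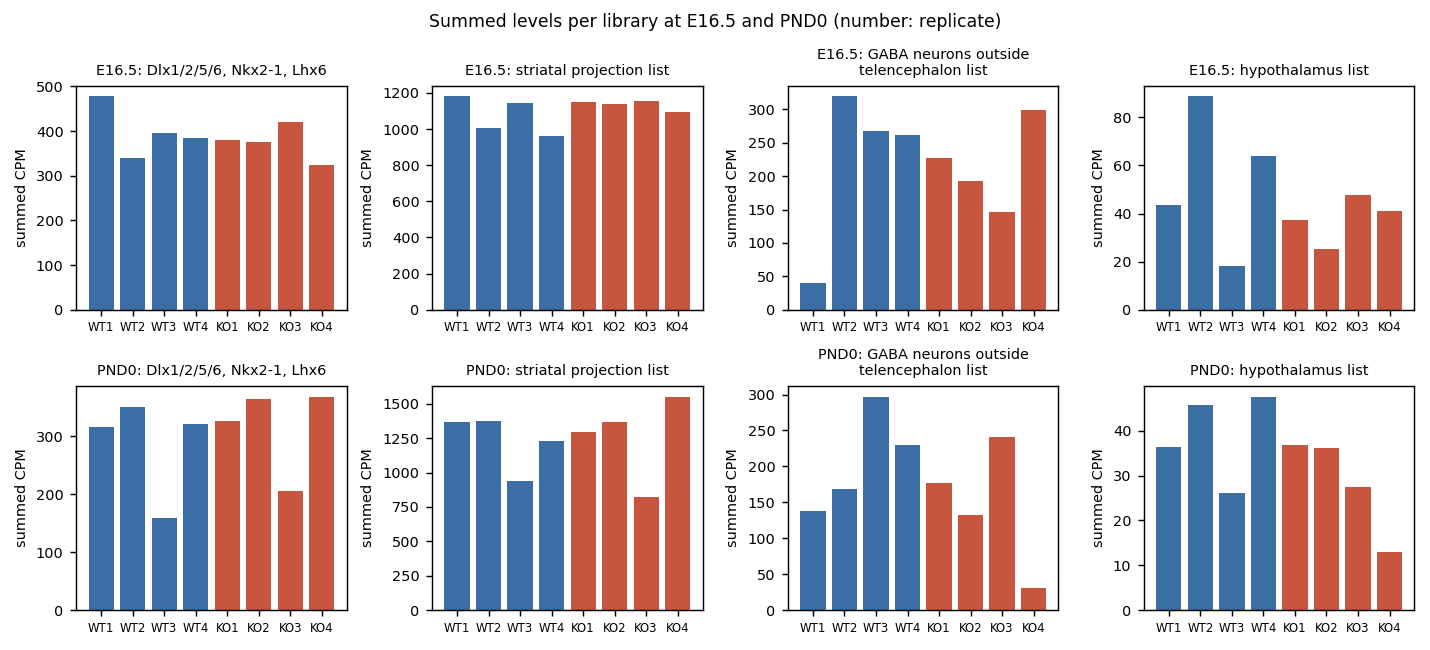
Summed CPM per library (bars from 0; WT blue, KO red; the number is the replicate) for the 6 transcription factor genes and for marker lists of striatal projection neurons, GABA neurons outside the telencephalon and hypothalamus. At PND0, WT replicate 3 (158) and KO replicate 3 (206) are low for the 6 genes and for the striatal list, and at E16.5 WT replicate 1 (478) is the highest for the 6 genes and the lowest for the GABA list outside the telencephalon (40.4).

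Of the other lineage lists at PND0, 2 lay wholly below 0, the side of Gad2. The differences of all 6 transport and breakdown genes were below 0 (median -0.17, against 0.00 for all genes), none passed, and 2 had an unadjusted p under 0.05, where 3130 of all 17420 genes had one. Abat, the GABA transaminase, had the smallest p, with a difference of -0.32 (SE 0.0877, adjusted p = 0.0766). All 5 migration receptors were below 0 as well (median -0.24, none called). The sums of both lists did not overlap between the genotypes. Those of the transport and breakdown genes were 949.8 to 1016 CPM in WT and 762.3 to 946.5 in KO. Those of the migration receptors were 392.8 to 429.2 in WT and 332.6 to 346.4 in KO. The 14 interneuron factors had 10 above 0 (median 0.12, none called), with sums of 984.5 to 1117 CPM in WT and 1084 to 1280 in KO. Without WT replicate 3 and KO replicate 4, these lists had 5 of 6 and 5 of 5 below 0 and 6 of 14 above. Cck, a peptide of another interneuron class and of pyramidal neurons, rose by 0.59 (SE 0.122, adjusted p = 0.0288), from 25.02 ± 4.09 to 37.7 ± 1.65 CPM (SD, n = 4), the only one of 12 tested subtype markers to pass. That call was lost without WT replicate 1 or 3 or KO replicate 1 or 2 (adjusted p of 0.0768, 0.0776, 0.081 and 0.0923). Cortical glutamatergic markers had 7 of 11 above 0 (median 0.24, none called, 4 with an unadjusted p under 0.05), with sums of 1134 to 1375 CPM in WT and 985 to 1916 in KO, and their part in the Cck difference was not tested.

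Among the markers of other regions and of blood described next, 1 gene passed at PND0, and the hindbrain and spinal cord sum was the only one whose genotypes did not overlap. Of 12 markers of GABA neurons outside the telencephalon, 11 were tested and all 11 were below 0 in KO (median -0.48, none called), with sums of 138 to 297 CPM in WT and 30.6 to 241 in KO. The 12 hindbrain and spinal cord markers summed to 1.64 to 9.26 CPM in WT and 0.397 to 0.643 in KO, where 9 of the 12 were at 0 in all 4 libraries, against 3 in WT. The 1 that could be tested, Slc6a5, the glycine transporter of hindbrain and spinal neurons, fell by 3.14 (SE 0.52, adjusted p = 0.012), a call lost without WT replicate 3 (-2.95, adjusted p = 0.054) or KO replicate 1 (adjusted p = 0.0558). Its libraries read 1.24, 1.71, 4.53 and 5.67 CPM in WT and 0.397, 0.515, 0.339 and 0.238 in KO. The hypothalamus list had 8 of 11 below 0, with 26.0 to 47.6 CPM in WT and 12.99 to 36.9 in KO, and the blood list had 6 of 6 above 0, with 197 to 261 in WT and 229 to 2263 in KO. Without WT replicate 3 and KO replicate 4, the highest and the lowest for GABA neurons outside the telencephalon, the list had 4 of 11 below 0 (median 0.03), and Gad2 was at -0.49 (adjusted p = 0.0424). Without that pair 15 of 17 striatal projection markers were below 0 (median -0.215, none called), against 9 of 17 (median -0.018) with no library left out. Without WT replicate 3 and KO replicate 3 instead, 10 of 10 tested markers of GABA neurons outside the telencephalon were below 0 (median -0.645, none called). The part of the remaining regional differences in the Gad2 difference was not tested.

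Lists of other tissues and regions held no further calls. The smallest unadjusted p over the 4 stages in each was that of Pde10a among striatal projection markers (E14.5, -0.20, adjusted p = 0.0979), Emx1 among cortical glutamatergic markers (PND0, 0.60, adjusted p = 0.0551), Rax for hypothalamus (E14.5, -1.06, adjusted p = 0.317) and Tubb3 for general brain genes (E14.5, -0.09, adjusted p = 0.186). For blood it was Alas2 (-1.33), for other head tissues Myog (-2.93) and for pituitary, thyroid and lung Lhx3 (-0.88), all at E12.5 with adjusted p of 0.875, 0.875 and 0.912. The adjustment depends on the stage, and by adjusted p the lowest were 0.237 for hypothalamus, 0.125 for general brain genes and 0.208 for blood, all at PND0, and 0.559 for other head tissues at E14.5.

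Whether the KO difference itself changed with stage was tested in 1 fit of all 32 libraries. None of the 10 genes passed, and 5 of 19541 genes did, or 0.0256%. Gad2 was the only one of the 10 with an unadjusted p under 0.05, against 13.5% of all genes. Its edgeR p was 0.0039 (adjusted p = 0.20), with differences of 0.32, -0.04, -0.10 and -0.50 in order of stage, and Lhx6 had an adjusted p of 0.722. Thus neither the Lhx6 difference at E14.5 nor the Gad2 difference at PND0 was shown to be particular to its stage by edgeR. DESeq2 gave Gad2 an adjusted p of 0.0473, where 344 genes passed, and edgeR without E12.5 KO replicate 1 gave 0.0198, where 797 of 20007 genes (3.98%) passed. Averaged over the 4 stages, the KO differences of the 10 genes lay between -0.07 for Gad2 and 0.10 for Sst, 6 above and 4 below 0, and none passed (adjusted p of 0.733 to 0.972), where 0.558% of all genes did. None of the 10 had an unadjusted p under 0.05 in the averaged comparison, against 12.4% of all genes, and DESeq2 called none.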

How the data were processed

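RNA-seq was done on 32 whole-brain libraries, with polyadenylated RNA and paired reads of 150 bases, per the labels' protocols. The authors deposited raw counts per gene symbol, 1 table per stage. HISAT2, SAMtools, featureCounts, DESeq2 and the mouse build mm10 are named, without versions or roles, in the submitters' processing notes. The annotation and the strand setting are not given in the sources used here.

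Groups came from the labels. Each comparison was fitted on its 8 libraries over the whole table with edgeR 4.0.16 (R 4.3.3, TMM scaling, quasi-likelihood F test, robust), after a filter of 10 counts (15 in total), with Benjamini-Hochberg adjustment and a threshold of 0.05. The KO difference by stage and its average used all 32 libraries. Standard errors are the log2 difference divided by the square root of F. Printed CPM use TMM factors over all 32 libraries. Ratios used raw counts and exact two-sided permutation tests. The fits were tested on simulated data with known changes. Alternatives were DESeq2 1.42.0 and its size factors, no filter, a replicate block, all libraries in 1 fit, a sex covariate, length offsets and each library left out. Added after seeing the data were fits without pairs of libraries, the ribosomal RNA covariate and the ratio tests.

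The 10 genes and all lists were chosen with earlier results of these data known. Named were all 10 genes, every called gene of a list or else its smallest p, the largest WT rise and fall of each lineage list, the 3 nearest WT courses, and overlapping genes with exon bases in common. A gene of the progenitor list, and the counts of that list, are not reported here. Over 48 pairs of libraries within groups, the chi-square per degree of freedom was at least 2.9, so none was a copy. Genes were placed with GENCODE M21 (GRCm38).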

Additional observations from a re-analysis of the deposited data

Results flagged for a closer look

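Of 80 sets of 4 libraries (10 genes in 8 groups), 5 held a library far from the other 3 by Dixon's test. Chance flags about 1 in 20 such sets. At E12.5, WT replicate 2 had the lowest Lhx6, 13.10 CPM against 30.52 in the next library. At E16.5, WT replicate 2 had the lowest Dlx2, 36.55 CPM against 54.10, and WT replicate 1 the highest Dlx6, 22.07 CPM against 14.80. At PND0, replicate 3 had the lowest Dlx5 in both genotypes, 7.096 CPM against 22.40 in WT and 11.03 CPM against 25.41 in KO.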

How the results depend on the processing

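The correlation of same-numbered WT and KO libraries ran from -0.177 to 0.378 and was above 0.1 for every number at no stage. It was above 0.1 for replicates 1 and 3 at E12.5, replicate 4 at E16.5 and replicate 3 at PND0. These correlations cannot show whether libraries of the same number shared a litter. With the replicate block, Gad1 passed at PND0 (-0.32, adjusted p = 0.0493) beside Gad2, giving 2 calls, and the WT step from E16.5 to PND0 also had 2. The count of the 10 genes called at E14.5 in KO was 1 and became 0 in the fit of all 32 libraries. At PND0 it was 1 and became 2 without a filter and with DESeq2, and 0 with the ribosomal RNA covariate. For the WT step from E16.5 to PND0, 1 call became 2 with DESeq2, 2 with length offsets, 5 with all 32 libraries and 5 without E16.5 WT replicate 1 and PND0 WT replicate 3. Leaving out 1 library gave 1 to 4 calls in that step, 5 to 8 from E14.5 to E16.5 and 6 to 9 from E12.5 to E14.5. The KO effect by stage had 1 call in place of 0 with DESeq2, and 0 to 1 with 1 library left out (1 without E12.5 KO replicate 1). The cause of these changes was not tested. No called gene changed sign under any alternative run. Over all genes, the KO against WT calls at PND0 were 250 as reported, 1091 without a filter, 921 with DESeq2, 1205 with all libraries, 44 with length offsets and 2 with the ribosomal RNA covariate. Dropping a single library gave 35 (WT replicate 3) to 263 calls there, with 38 for KO replicate 1, 62 for WT replicate 1 and 95 for KO replicate 2. At E12.5 they were 3, with DESeq2 30, with the block 6 and with all libraries 52. At E14.5 they were 94, and 146 without a filter and 4 with all libraries. At E16.5 they were 8, with 233 without a filter, 168 with DESeq2, 5 with the block, 3 with all libraries and 4 with the sex covariate. Without WT replicates 1 and 2 they were 356. Dropping a single library gave 1 to 5 calls at E12.5, 52 to 155 at E14.5 and 3 to 14 at E16.5.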
